A study of Homo sapiens with 12 samples.

Results

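The genes of the proteasome were examined on 12 Illumina bead arrays of U937, an established human line of monocyte-like leukaemia cells. All probes whose platform gene symbol begins with PSMA, PSMB, PSMC, PSMD, PSME, PSMF or PSMG were taken, which gave 60 probes for 44 symbols among 24526 probes and 16922 named genes on the array. The 3 groups held 4 arrays each: cells exposed for 24 h to MC2494, a sirtuin inhibitor by the series' title, cells exposed for 24 h to EX527, which blocks the deacetylase SIRT1, and control cells. All groups were grown in RPMI with glutamine, penicillin and streptomycin. No dose of a compound, no vehicle for the controls and no note on whether replicate arrays stem from different cultures is given in the labels, and the p-values below therefore cover only variation from array to array, possibly technical. U937 is a single established line, so no difference between donors is covered. Of the 44 symbols, 42 belong to subunits, assembly chaperones or regulators of the proteasome, and 41 of these 42 were detected well enough to be tested. The probe of PSMF1, the proteasome inhibitor PI31, was not detected on any array. The other 2 symbols, PSMC3IP and PSME3IP1, match by spelling and encode proteins that are not part of the complex, and they are described apart.

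The proteasome is the large protease that degrades proteins tagged with ubiquitin. Its 20S core is a barrel of alpha rings (PSMA genes), which gate the entrance, and beta rings (PSMB genes), in which PSMB5, PSMB6 and PSMB7 cut the chain. The 19S cap binds the barrel, recognises ubiquitin and feeds in the substrate; it is built from a ring of ATPases (PSMC genes) and from non-ATPase subunits (PSMD genes), some of which form a scaffold and others a lid that removes ubiquitin. In blood cells the catalytic subunits can be replaced by the immunoproteasome forms PSMB8, PSMB9 and PSMB10, which are inducible by interferon-gamma and change the peptides made for display on MHC class I molecules. When proteasome capacity is short, the transcription factor NFE2L1 is known to raise most subunit genes together through antioxidant response elements in their promoters.

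Signals below are background-corrected, quantile normalised log2 values, in which an offset of 16 was added before taking logs, so a fold change understates that of a dim gene. A gene is called higher or lower at a limma adjusted p under 0.05 over all 13174 probes kept, and all standard errors are those of limma log2 fold changes with n = 4 arrays per group. Mean raw signal was 662.8 ± 31 on MC2494 arrays, 736.2 ± 32.3 on EX527 arrays and 779.3 ± 14.5 on control arrays (SD, n = 4), and between 12231 and 13030 probes were detected per array. Quantile normalisation removes that difference, and bright genes moved more with the choice of scaling. Over the 769 genes with a mean of 12 or more, the median log2 change in MC2494 against control was 0.00 after quantile normalisation and -0.30 after scaling each array to its median, while over all 9956 genes it was 0.01 and -0.08. In EX527 against control the bright-gene median was -0.02 after quantile normalisation and -0.19 after median scaling. Of the 41 proteasome genes, 18 were that bright. Members whose call changed with median scaling are named below in each comparison. Of the 15 myeloid markers on the array, 14 were detected, among them SPI1, CEBPA and LYZ, while MPO was not. Of 11 lymphocyte markers 4 were detected (MS4A1, CD79A, CD79B and NKG7), and CD3D, CD3E and PAX5 were not; of 9 erythroid and megakaryocytic markers KLF1 alone was detected. The summed raw signal of the lymphocyte list ran from 7289 to 8293 on MC2494 arrays, 9318 to 10520 on EX527 arrays and 10090 to 10680 on control arrays. That of the myeloid list ran from 80690 to 86640 on MC2494 arrays, 85400 to 94990 on EX527 arrays and 99800 to 111300 on control arrays. These sums are of raw signal, and the mean raw signal of the arrays differed between groups as given above. After normalisation single markers moved both ways in MC2494 against control. Examples are CSF3R (0.85), CEBPA (0.58), LYZ (-1.83), ANPEP (-1.61), CD79B (0.42) and CD79A (-1.70). The part of these sums in the results below was not tested. In such bulk RNA, fewer cells with a marker and less of its RNA per cell cannot be told apart.

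In MC2494-treated cells most transcripts of the standard proteasome were lower than in control cells, while 2 of the 3 immunoproteasome genes were higher. Of the 41 genes tested, 31 were lower, 6 were higher and 4 were not called, at a median log2 change of -0.29; among all 9956 genes 72.1% were called, 34.8% lower and 37.3% higher, at a median of 0.01. The arrays of both groups did not overlap for 34 of the 41 genes, against 65.7% of all genes. By class, 11 of 14 cap subunits with a PSM symbol were lower and 0 higher, at a median of -0.46. Of 14 core subunits outside the immunoproteasome, 12 were lower and 1, PSMA8 of the testis proteasome, was higher, at a median of -0.25. The PSMA8 probe was dim, and the limits on its rise under any scaling are given with the alpha genes below. With median scaling in place of quantile normalisation, 34 of the 41 were lower and 3 higher, PSMA8, PSMB9 and PSMB10, and the core median was -0.57; among all genes 40.7% were then lower and 30.6% higher. PSMA4, PSMD4 and PSMD14 joined the lower genes under that scaling, and PSMD10, PSME1 and PSME2 were no longer called.

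**Figure D1:**
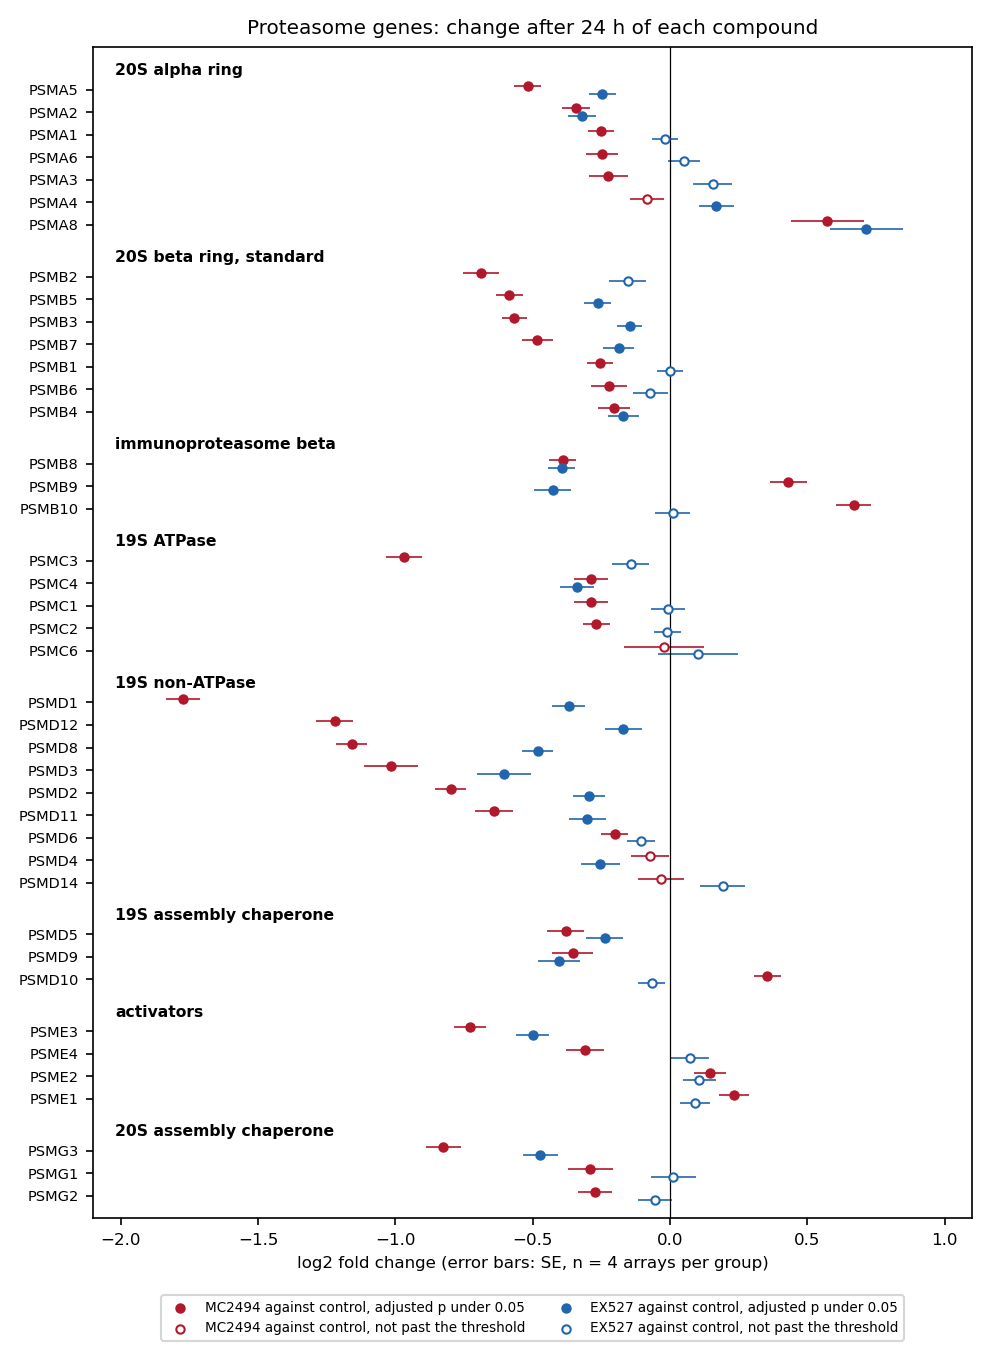
Log2 fold change against control for the 41 proteasome genes, by class, after 24 h of MC2494 (red) or EX527 (blue). Bars are the standard error of the limma fit with 4 arrays per group, and filled points passed the adjusted p threshold of 0.05. PSMD1 is lowest in MC2494 at -1.77 and PSMB10 highest at 0.67, and PSMB9 lies on opposite sides of 0 with the 2 compounds.

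The cap held the largest falls. PSMD1, the RPN2 scaffold subunit at the base of the cap, read 9.30, 9.35, 9.36 and 9.45 on the MC2494 arrays, against 11.14, 11.12, 11.18 and 11.11 on the control arrays. It was 3.42-fold lower (log2 fold change -1.77 ± 0.06, limma adjusted p = 1.08e-11). The raw signals of its probe show the gap before any normalisation, at 586, 687, 693 and 698 on MC2494 arrays, against 2571, 2534, 2491 and 2386 on control arrays. PSMD12, a lid subunit, read 9.98, 10.05, 10.12 and 10.17 with MC2494, against 11.39, 11.22, 11.36 and 11.24 in controls, and was 2.33-fold lower (-1.22 ± 0.07, limma adjusted p = 9.12e-10). Another lid subunit, PSMD8, stood at 10.22, 10.18, 10.30 and 10.20 in MC2494 cells, against 11.37, 11.39, 11.36 and 11.42 in control cells, a 2.23-fold difference (-1.16 ± 0.06, limma adjusted p = 2.97e-10). In each of these 3 genes the highest MC2494 array was more than 1 log2 unit below the lowest control array. PSMD3, also of the lid, had 7.48, 7.61, 7.33 and 7.37 on MC2494 arrays and 8.60, 8.44, 8.35 and 8.47 on control arrays, and was 2.02-fold lower (-1.02 ± 0.10, limma adjusted p = 4.40e-07). PSMC3, the RPT5 subunit of the ATPase ring, had 11.29, 11.20, 11.03 and 11.09 with MC2494 and 12.13, 12.20, 12.03 and 12.12 in controls, and was 1.96-fold lower (-0.97 ± 0.07, limma adjusted p = 1.03e-08). PSMD2, the RPN1 subunit on which ubiquitin carriers dock, fell by 0.80 on the log2 scale, and the lid subunit PSMD11 fell by 0.64.

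Within the cap the falls were uneven. The other ATPases with a clear signal lay close together, PSMC1 at -0.29, PSMC4 at -0.29 and PSMC2 at -0.27, and the lid subunit PSMD6 was at -0.20; all 4 were called lower. PSMD14, the lid enzyme that cuts ubiquitin from the substrate, read 11.94, 12.03, 11.84 and 11.92 in MC2494, against 12.14, 12.00, 11.84 and 11.88 in controls, and its change of -0.03 (95% interval -0.21 to 0.14) was not called. PSMD4, the ubiquitin receptor RPN10, read 12.05, 12.38, 12.06 and 12.09 in MC2494, against 12.18, 12.19, 12.27 and 12.23 in controls, with a change of -0.07 (95% interval -0.22 to 0.08) that was not called. With median scaling both were called lower, PSMD14 at -0.36 and PSMD4 at -0.40. PSMC6 was detected on 2 of the 4 arrays of each group, and its change of -0.02 had a 95% interval of -0.33 to 0.29. Probes for PSMC5, PSMD7 and PSMD13 were not analysed here.

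**Figure D2:**
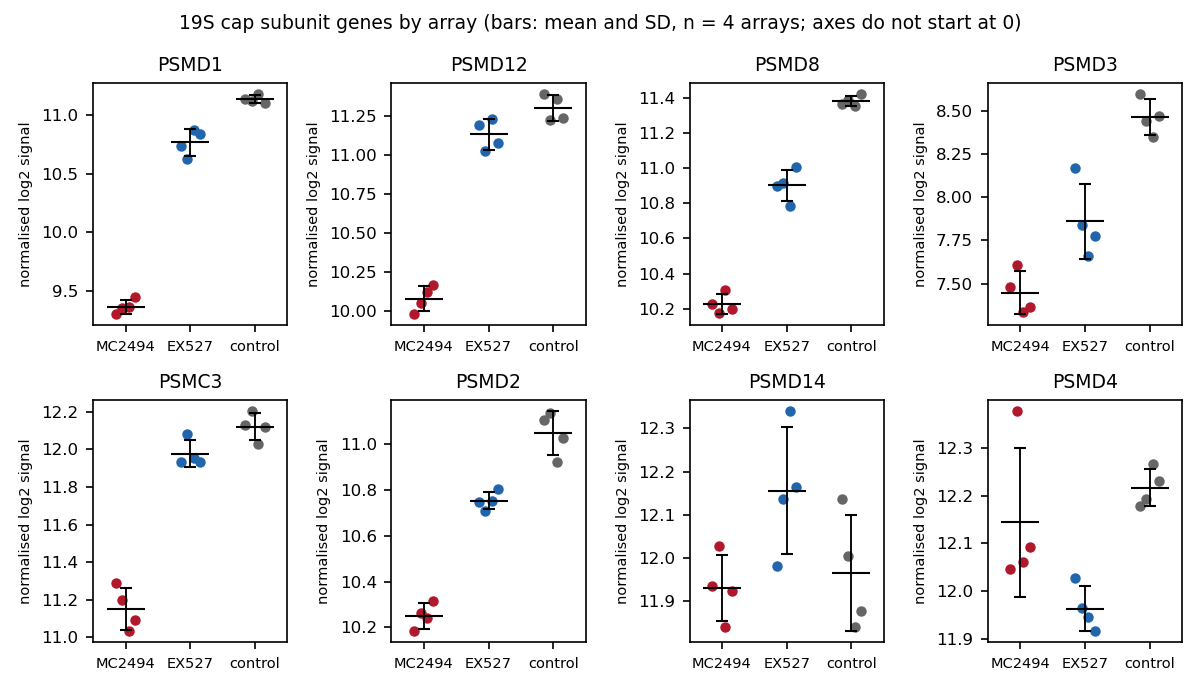
Normalised log2 signal of 8 cap subunit genes on each array, by group; bars are the mean and SD of 4 arrays, and each panel has its own range. In PSMD1, PSMD12, PSMD8, PSMD3, PSMC3 and PSMD2 every MC2494 array lies below every EX527 and control array, while PSMD14 and PSMD4 overlap between MC2494 and control.

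The stretch before the start site is shown for the 5 cap genes with the largest falls in MC2494, PSMD1, PSMD12, PSMD8, PSMD3 and PSMC3, because NFE2L1 is known to act on cap genes through such sequence. Each line gives the 250 bases before the annotated start, 5′ to 3′ on the gene's strand, from RefSeq on GRCh38.p14. Capitals mark the core of the antioxidant response element, TGACNNNGC, on either strand. PSMD1 lies at chr2:231056617-231056866, plus strand, PSMD12 at chr17:67366578-67366827, minus strand, PSMD8 at chr19:38374321-38374570, plus strand, PSMD3 at chr17:39980557-39980806, plus strand and PSMC3 at chr11:47426440-47426689, minus strand.
PSMD1: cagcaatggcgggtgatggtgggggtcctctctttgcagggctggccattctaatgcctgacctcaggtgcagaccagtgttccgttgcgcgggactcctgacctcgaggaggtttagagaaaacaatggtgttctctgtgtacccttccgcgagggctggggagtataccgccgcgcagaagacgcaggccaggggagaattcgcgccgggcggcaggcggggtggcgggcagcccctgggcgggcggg
PSMD12: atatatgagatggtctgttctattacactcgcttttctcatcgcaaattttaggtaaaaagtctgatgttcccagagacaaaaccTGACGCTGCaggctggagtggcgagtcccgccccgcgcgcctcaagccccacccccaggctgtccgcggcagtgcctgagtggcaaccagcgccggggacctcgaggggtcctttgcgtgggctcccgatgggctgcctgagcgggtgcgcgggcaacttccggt
PSMD8: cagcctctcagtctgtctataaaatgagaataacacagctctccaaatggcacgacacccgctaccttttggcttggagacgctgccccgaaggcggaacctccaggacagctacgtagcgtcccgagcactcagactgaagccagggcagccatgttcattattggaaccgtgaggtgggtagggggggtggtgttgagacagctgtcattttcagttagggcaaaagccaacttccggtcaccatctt
PSMD3: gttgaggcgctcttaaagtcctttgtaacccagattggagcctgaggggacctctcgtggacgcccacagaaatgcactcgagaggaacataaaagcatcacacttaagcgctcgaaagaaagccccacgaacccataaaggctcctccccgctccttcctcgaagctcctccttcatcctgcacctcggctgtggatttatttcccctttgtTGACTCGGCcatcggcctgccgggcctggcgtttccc
PSMC3: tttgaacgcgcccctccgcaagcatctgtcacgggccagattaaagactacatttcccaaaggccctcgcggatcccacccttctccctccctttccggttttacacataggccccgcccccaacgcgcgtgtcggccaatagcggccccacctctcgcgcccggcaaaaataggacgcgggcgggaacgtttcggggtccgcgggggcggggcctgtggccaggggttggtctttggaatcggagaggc
PSMD12 and PSMD3 each held 1 match, and PSMD1, PSMD8 and PSMC3 held 0.

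Among the 36 proteasome genes with a RefSeq window, 12 held the TGACNNNGC core (33.3%), against 13.2% of 27305 genes with such a window; the letters TGAC at its start also begin AP-1 and cyclic AMP response elements, and both strands were searched. The 12 were PSMA4, PSMB3, PSMB9, PSMD12, PSMD3, PSMD5, PSMD9, PSME1, PSME2, PSME4, PSMG1 and PSMG2. Among them were 8 of the 27 genes with a window that were lower in MC2494 (29.6%) and 3 of the 6 that were higher (50%). The CCAAT box, the letters CCAAT on either strand, was in 16 of the 36 (44.4%), against 37% of all genes. A match describes the sequence and is not evidence of binding. PSMB1, PSMB6, PSMB7, PSMD4 and PSMG3 had no entry.

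In the barrel of the core, all 7 standard beta genes were lower with MC2494, against 34.8% of all genes, at a median of -0.48, and all 7 had groups that did not overlap, against 65.7% of all genes. PSMB2, a structural beta subunit, read 12.22, 12.27, 12.30 and 12.20 in MC2494, against 12.74, 12.99, 13.01 and 13.01 in controls. It was 1.61-fold lower (-0.69 ± 0.07, limma adjusted p = 4.20e-07), the largest fall in the core. PSMB5, which carries the chymotrypsin-like activity and is the main target of bortezomib, read 11.19, 11.21, 11.12 and 11.18 with MC2494, against 11.75, 11.81, 11.73 and 11.75 in controls, 1.5-fold lower (-0.58 ± 0.05, limma adjusted p = 9.87e-08). For PSMB7, the trypsin-like subunit, the arrays gave 13.02, 13.06, 12.98 and 13.02 in MC2494 and 13.40, 13.55, 13.58 and 13.49 in controls, 1.4-fold lower (-0.48 ± 0.06, limma adjusted p = 2.71e-06). PSMB6, the caspase-like subunit, changed least of the 3 catalytic genes: 13.18, 13.15, 13.04 and 13.04 in MC2494, against 13.29, 13.30, 13.31 and 13.40 in controls, 1.17-fold lower (-0.22 ± 0.06, limma adjusted p = 0.00682). With median scaling PSMB7 was at -0.82 and PSMB6 at -0.54, both still called lower. The structural subunits PSMB3, PSMB1 and PSMB4 were at -0.57, -0.26 and -0.20.

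Of the 7 alpha genes measured, 5 were lower, 1 was higher and 1 was not called, at a median of -0.25. Among all genes 34.8% were lower and 37.3% higher. PSMA5 read 12.30, 12.36, 12.28 and 12.30 on MC2494 arrays, against 12.88, 12.84, 12.85 and 12.74 on control arrays, and was 1.43-fold lower (-0.52 ± 0.05, limma adjusted p = 3.02e-07). PSMA2, PSMA1, PSMA6 and PSMA3 lay at -0.34, -0.25, -0.25 and -0.22, and a dimmer PSMA1 probe gave -0.76, so the size of the PSMA1 fall depends on the probe. PSMA4 was at -0.08 (95% interval -0.22 to 0.05) and was not called, but with median scaling it was at -0.42 and called lower (limma adjusted p = 7.37e-05). PSMA8, the alpha subunit of the testis proteasome, was the exception. Its probe was dim, at 5.63, 5.77, 5.32 and 5.67 in MC2494, against 5.26, 5.20, 4.65 and 4.99 in controls, where it was detected on 2 of 4 arrays, and it was 1.49-fold higher (0.57 ± 0.13, limma adjusted p = 0.0014). The PSMA8 raw signals overlapped, at 88.1 to 108.2 on MC2494 arrays and 63.4 to 92.4 on control arrays. Such a probe can pass the detection filter through the treated arrays, where it is high, so the filter favours a rise. PSMA8 was not tested when detection on all 12 arrays was required. It is a close relative of PSMA7, for which no probe was analysed here.

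The immunoproteasome genes parted from one another. PSMB10, which takes the place of PSMB7, read 12.67, 12.64, 12.69 and 12.62 in MC2494, against 11.91, 11.97, 11.96 and 12.11 in controls, and was 1.59-fold higher (0.67 ± 0.06, limma adjusted p = 3.06e-07). Its raw signals were 5437, 5811, 6151 and 5519 on MC2494 arrays, against 4379, 4574, 4396 and 4846 on control arrays, so the MC2494 arrays were the brighter ones before normalisation too. PSMB9, which takes the place of PSMB6, read 9.16, 9.22, 8.96 and 8.99 in MC2494, against 8.54, 8.72, 8.74 and 8.61 in controls, 1.35-fold higher (0.43 ± 0.07, limma adjusted p = 5.35e-05). PSMB8, which takes the place of PSMB5, went the other way, at 11.50, 11.46, 11.45 and 11.52 in MC2494, against 11.83, 11.85, 11.92 and 11.88 in controls, 1.31-fold lower (-0.39 ± 0.05, limma adjusted p = 5.81e-06). All 4 PSMB8 probes kept were called lower, by 0.39, 0.39, 0.45 and 0.61 on the log2 scale. In each of the 3 genes the MC2494 and control arrays did not overlap, against 65.7% of all genes.

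**Figure D3:**
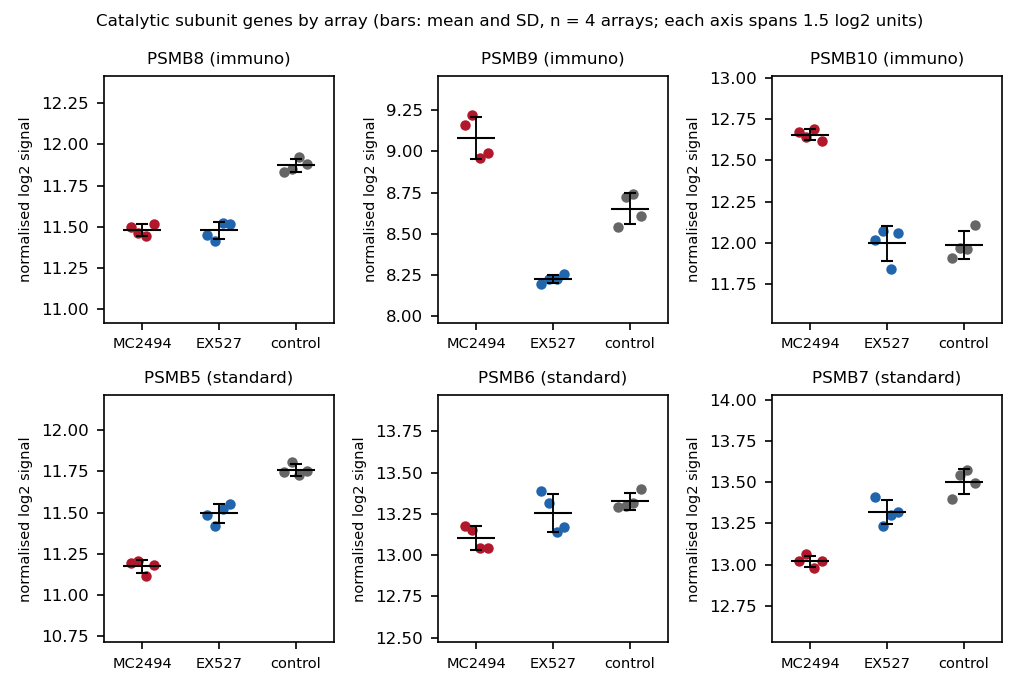
Normalised log2 signal per array for the immunoproteasome genes (top) and the standard catalytic genes they replace (bottom), with the mean and SD of 4 arrays; every panel spans 1.5 log2 units. PSMB10 is highest in MC2494, PSMB9 is highest in MC2494 and lowest in EX527, and PSMB8 is lower with both compounds than in control.

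Each immunoproteasome gene was then set against its standard partner on the same array, as a difference of log2 signals. A 2-sided exact permutation test was used for 9 differences, and with 4 arrays against 4 the smallest p it can give is 0.0286, which is 0.0322 after Benjamini-Hochberg adjustment over the 9. PSMB10 minus PSMB7 was higher in MC2494 than in control by 1.15 ± 0.06 (SE, 2.22-fold), PSMB9 minus PSMB6 by 0.65 ± 0.07 (1.57-fold) and PSMB8 minus PSMB5 by 0.19 ± 0.04 (1.14-fold), each at the smallest exact p, 0.0286. For PSMB8 the positive value meant that PSMB5 fell further than PSMB8. That last difference was -0.02 with the dimmest probe of each gene. In EX527 against control, PSMB9 minus PSMB6 was lower by 0.36 ± 0.09 (1.28-fold, exact p = 0.0286) and PSMB8 minus PSMB5 by 0.13 ± 0.03 (1.09-fold, exact p = 0.0286), while PSMB10 minus PSMB7, at 0.20 ± 0.08, was not called (exact p = 0.0857). With median scaling PSMB9 minus PSMB6 in EX527 was -0.12 and no longer called, and PSMB10 minus PSMB7 was 0.24 and called.

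**Figure D4:**
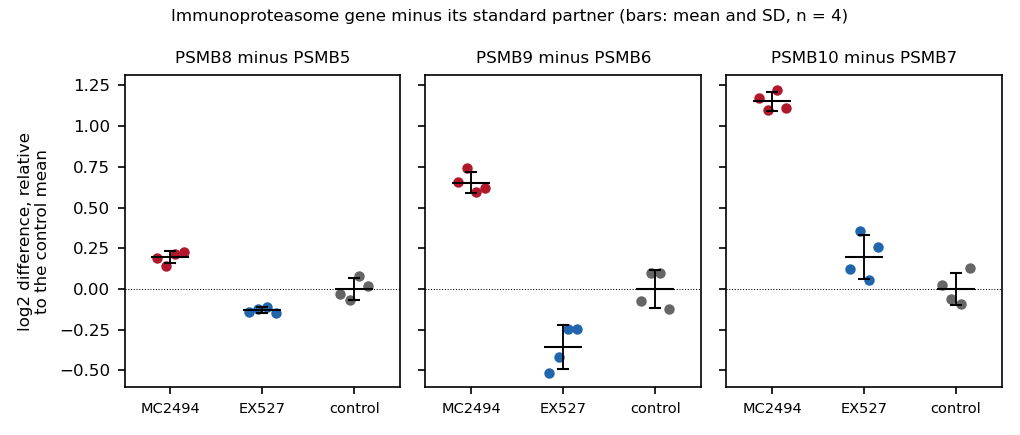
Log2 signal of each immunoproteasome gene minus that of its standard partner on the same array, relative to the control mean, with the mean and SD of 4 arrays. MC2494 arrays lie above all control arrays in the 3 pairs, by 0.19, 0.65 and 1.15 on average, and EX527 arrays lie below them in the first and second pair.

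Promoter windows of PSMB10 and PSMB9 are shown beside that of PSME2, 3 genes that interferon-gamma is known to induce and that were called higher in MC2494. PSMB8 and PSME1, which interferon-gamma also induces, are not shown. In PSMB10 and PSME2 the capitals include the core of the interferon-stimulated response element, searched as 2 copies of GAAA with any 2 bases between them; in PSMB9 and once in PSME2 they mark TGACNNNGC, which in PSMB9 reads on the opposite strand. PSMB10 lies at chr16:67936851-67937100, minus strand, PSMB9 at chr6:32853942-32854191, plus strand and PSME2 at chr14:24146611-24146860, minus strand.
PSMB10: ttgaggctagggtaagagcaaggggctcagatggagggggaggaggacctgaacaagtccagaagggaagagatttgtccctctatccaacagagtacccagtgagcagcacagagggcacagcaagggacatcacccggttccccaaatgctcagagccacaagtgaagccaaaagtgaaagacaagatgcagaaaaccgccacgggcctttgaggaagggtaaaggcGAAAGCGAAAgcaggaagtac
PSMB9: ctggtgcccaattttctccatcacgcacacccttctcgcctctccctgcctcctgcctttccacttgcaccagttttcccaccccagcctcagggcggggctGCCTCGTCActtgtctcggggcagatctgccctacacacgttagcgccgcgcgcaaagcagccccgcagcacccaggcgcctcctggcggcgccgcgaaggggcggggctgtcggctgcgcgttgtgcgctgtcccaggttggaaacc
PSME2: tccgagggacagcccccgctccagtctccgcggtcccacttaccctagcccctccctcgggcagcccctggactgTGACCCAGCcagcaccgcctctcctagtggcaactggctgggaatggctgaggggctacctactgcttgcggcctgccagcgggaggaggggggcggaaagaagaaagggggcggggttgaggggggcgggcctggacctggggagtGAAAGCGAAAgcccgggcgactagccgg
That core was in 4 of the 36 proteasome genes with a window (11.1%: PSMA4, PSMB10, PSMB4 and PSME2), against 3.71% of 27305 genes; both strands were searched. Of these 4, PSMB10 and PSME2 were called higher in MC2494, PSMB4 was called lower and PSMA4 was not called. Among all genes 37.3% were higher and 34.8% lower. With median scaling PSME2 was at -0.12 and not called, and PSMA4 was at -0.42 and called lower. The windows of PSMB8, which was called lower in MC2494, and of PSME1, which was called higher, held 0 matches to that core. The PSMB9 window also held 0 matches. A window of the neighbouring gene TAP1 that overlaps it, chr6:32853705-32853954 on the minus strand, held 2.

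The activators that cap the core in place of the 19S particle also divided. PSME3, the nuclear activator PA28 gamma, read 10.46, 10.52, 10.59 and 10.54 in MC2494, against 11.16, 11.35, 11.29 and 11.20 in controls, and was 1.66-fold lower (-0.73 ± 0.06, limma adjusted p = 5.95e-08). PSME4, the nuclear activator PA200, was at -0.31 and called lower. PSME1 and PSME2, the PA28 alpha and beta subunits that interferon-gamma induces with the immunoproteasome, were called higher, at 0.23 ± 0.05 and 0.15 ± 0.06. PSME1 read 12.23, 12.22, 12.40 and 12.25 in MC2494, against 12.00, 12.07, 12.05 and 12.03 in controls, and did not overlap, but with median scaling its change was -0.10, so its direction rests on the normalisation; PSME2 was at -0.12 with that scaling and not called, and it also lost its call without control array 1 or 4 or MC2494 array 1, 3 or 4 (range 0.11 to 0.19).

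All 3 chaperones that assemble the core and were measured, PSMG3, PSMG1 and PSMG2, were lower in MC2494, against 34.8% of all genes. PSMG3 had the largest change, with 8.06, 8.27, 8.16 and 8.07 in MC2494 and 8.90, 9.03, 8.87 and 9.06 in controls, 1.77-fold lower (-0.83 ± 0.06, limma adjusted p = 3.07e-08), while PSMG1 and PSMG2 were at -0.29 and -0.27. Of the chaperones of the 19S base, PSMD5 had 8.93, 8.85, 9.05 and 9.04 in MC2494 and 9.25, 9.29, 9.33 and 9.51 in controls, 1.3-fold lower (-0.38 ± 0.07, limma adjusted p = 0.000164), and PSMD9 was at -0.35 and called lower. PSMD10, known as gankyrin, which also binds CDK4 and MDM2, moved the other way. It had 11.06, 11.19, 11.17 and 11.21 in MC2494 and 10.79, 10.82, 10.80 and 10.80 in controls, 1.28-fold higher (0.35 ± 0.05, limma adjusted p = 1.81e-05). Its 2 dimmer probes were at 0.06 and 0.25, neither of them called, and its rise was not called with median scaling.

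The 2 genes that share only the spelling differed in size. PSMC3IP, the HOP2 recombination protein that works with the strand-exchange protein DMC1, read 6.33, 6.32, 6.45 and 6.64 in MC2494, against 7.52, 7.59, 7.70 and 7.57 in controls, and was 2.23-fold lower (-1.16 ± 0.08, limma adjusted p = 1.09e-08). In EX527 it read 7.37, 7.41, 7.49 and 7.63, a change of -0.12 that was not called. PSME3IP1, a partner of PA28 gamma, was at -0.32 in MC2494 and -0.22 in EX527, both called lower.

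With EX527, several cap subunits, the activator PSME3, the chaperone PSMG3 and the immunoproteasome genes PSMB8 and PSMB9 were lower than in control. Of the 41 genes, 20 were lower, 2 were higher and 19 were not called against control, at a median log2 change of -0.15; among all genes 56% were called, 30.4% lower and 25.6% higher, at a median of -0.04. The groups did not overlap for 23 of 41 genes, against 51.6% of all genes. Cap subunits with a PSM symbol were lower in 8 of 14 cases (median -0.21). Core subunits were lower in 6 of 14 with 2 higher (median -0.11), and immunoproteasome genes in 2 of 3. With median scaling 28 of the 41 were lower and 1, PSMA8, was higher, while among all genes 32.3% were lower and 23.5% higher. The 8 that joined the lower genes were PSMA1, PSMB1, PSMB2, PSMB6, PSMC2, PSMC3, PSMD6 and PSMG2, at -0.34 to -0.18. The 2 comparisons against control share their control arrays, so their values are set side by side here and no overlap between them is counted.

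The lid subunit PSMD3 had the largest fall with EX527, at 8.17, 7.84, 7.66 and 7.78 on its arrays, against 8.60, 8.44, 8.35 and 8.47 on control arrays, 1.52-fold lower (-0.60 ± 0.10, limma adjusted p = 0.000163). PSME3 read 10.68, 10.75, 10.85 and 10.73 in EX527 and was 1.41-fold lower (-0.50 ± 0.06, limma adjusted p = 8.49e-06). PSMD8 read 10.90, 10.92, 10.79 and 11.01 and was 1.4-fold lower (-0.48 ± 0.06, limma adjusted p = 7.77e-06). All EX527 arrays lay below all control arrays in these 3 genes, which was a condition for naming them among the largest falls. PSMG3, at 8.50, 8.46, 8.47 and 8.54, was 1.39-fold lower (-0.47 ± 0.06, limma adjusted p = 2.53e-05), and the 19S chaperone PSMD9, at 7.39, 7.36, 7.31 and 7.36 in EX527, against 7.59, 7.81, 7.77 and 7.87 in controls, was 1.32-fold lower (-0.40 ± 0.07, limma adjusted p = 0.000438). PSMD1 and PSMD12, which had the largest falls with MC2494, were at -0.37 and -0.17 with EX527, both called lower. The PSMD12 arrays overlapped (limma adjusted p = 0.043), and the call was lost with no detection filter, with only the 2 groups compared in the fit, and without control array 1 or 3, EX527 array 2 or 4 or MC2494 array 3 (range -0.20 to -0.13).

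Among catalytic genes, PSMB9 was lower in EX527, at 8.20, 8.23, 8.22 and 8.26, against 8.54, 8.72, 8.74 and 8.61 in controls, 1.34-fold (-0.43 ± 0.07, limma adjusted p = 0.000123), and no arrays overlapped. PSMB8 read 11.45, 11.41, 11.53 and 11.52 and was 1.31-fold lower (-0.39 ± 0.05, limma adjusted p = 1.43e-05). PSMB10 read 12.01, 12.07, 11.84 and 12.06 and its change of 0.01 (95% interval -0.13 to 0.15) was not called. The standard genes PSMB5, at 11.48, 11.42, 11.52 and 11.55, and PSMB7, at 13.41, 13.23, 13.30 and 13.32, were called lower, at -0.26 ± 0.05 and -0.19 ± 0.06, while PSMB6, at 13.39, 13.32, 13.14 and 13.17, had a change of -0.07 (95% interval -0.21 to 0.07) that was not called. With median scaling PSMB6 was at -0.28 (limma adjusted p = 0.00138) and with no scaling at -0.24 (0.0101), called lower under both. PSMA8 read 5.61, 5.87, 5.91 and 5.57 in EX527 and was 1.64-fold higher (0.72 ± 0.13, limma adjusted p = 0.000427), with the same limit on its detection in controls. PSMA4, the other gene called higher, was at 0.17 (limma adjusted p = 0.0381) with arrays that overlapped; with median scaling it was at 0.01 and not called, and the call was also lost without control array 3 or 4 or EX527 array 1, 2 or 3 (range 0.13 to 0.22).

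The compounds were also compared directly, 24 h of MC2494 against 24 h of EX527, at doses that the labels do not give and that may differ. MC2494 was below EX527 in 25 of the 41 genes and above it in 5, with 11 not called, at a median of -0.25; among all genes 61.5% were called, 28.7% lower and 32.8% higher, at a median of 0.02, and 53.4% of all calls were higher. Without scaling the median of all genes moved to -0.10 and the higher share of calls to 35.9%, and with median scaling that share was 41.8%; 30 and 29 of the 41 proteasome genes were then lower and 3 higher in each case, PSMB9, PSMB10 and PSMD10. Among all genes 36.3% were lower and 20.3% higher without scaling, and 34.3% lower and 24.6% higher with median scaling. PSMB4, PSMB6, PSMD5 and PSMD6 joined the lower genes with median scaling, and PSMD4 and PSME1 were no longer called. The groups did not overlap for 31 of 41 genes, against 55.5% of all genes. By class, 10 of 14 core genes and 10 of 14 cap genes were lower, at medians of -0.26 and -0.31, and 2 of 3 immunoproteasome genes were higher.

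PSMD1 differed most, at 9.30, 9.35, 9.36 and 9.45 in MC2494, against 10.74, 10.62, 10.88 and 10.84 in EX527, 2.65-fold lower (-1.40 ± 0.06, limma adjusted p = 1.82e-10). PSMD12, which read 11.19, 11.03, 11.23 and 11.08 in EX527, was 2.07-fold lower in MC2494 (-1.05 ± 0.07, limma adjusted p = 7.79e-09). PSMC3, which read 11.93, 12.08, 11.96 and 11.93 in EX527, was 1.77-fold lower in MC2494 (-0.82 ± 0.07, limma adjusted p = 9.68e-08). These are the scaffold, a lid subunit and an ATPase of the cap. In each, every MC2494 array lay below every EX527 array, which was a condition for naming them among the largest falls. PSMD8 was 1.6-fold lower (-0.68 ± 0.06), PSMB2, at 12.75, 12.71, 12.79 and 12.87 in EX527, was 1.45-fold lower (-0.53 ± 0.07), and PSMD2, at 10.18, 10.26, 10.24 and 10.32 in MC2494, against 10.75, 10.71, 10.75 and 10.80 in EX527, was 1.42-fold lower (-0.50 ± 0.06). In the alpha ring PSMA3 differed most, at 11.14, 11.14, 10.90 and 11.02 in MC2494, against 11.39, 11.43, 11.49 and 11.40 in EX527 (-0.38 ± 0.07, limma adjusted p = 0.00041), and among the activators PSME4 did, at 11.44, 11.32, 11.54 and 11.59 in MC2494, against 11.80, 11.75, 11.95 and 11.92 in EX527 (-0.38 ± 0.07, limma adjusted p = 0.000235). PSMG3, PSMG1 and PSMG2 were all lower in MC2494, at -0.35, -0.30 and -0.22. The standard catalytic genes PSMB5 and PSMB7 were at -0.32 and -0.30, both called lower.

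On the other side, PSMB9 was 1.81-fold higher in MC2494 than in EX527 (0.86 ± 0.07, limma adjusted p = 8.69e-08) and PSMB10 was 1.58-fold higher (0.66 ± 0.06, limma adjusted p = 6.29e-07). PSMD10, at 10.68, 10.73, 10.75 and 10.79 in EX527, was 1.34-fold higher in MC2494 (0.42 ± 0.05, limma adjusted p = 5.30e-06). The smaller rises of PSMD4 (0.18) and PSME1 (0.14) had limma adjusted p of 0.038 and 0.0364, and neither was called under median scaling, where PSME1 was at -0.04; a dim second PSME1 probe also gave -0.04. The PSMD4 call was lost without EX527 array 2, 3 or 4 or MC2494 array 2 (range 0.10 to 0.21), and the PSME1 call without EX527 array 1, 2 or 3 or MC2494 array 3 (range 0.10 to 0.16). Set against their partners on the same array, PSMB9 minus PSMB6 was higher in MC2494 than in EX527 by 1.01 ± 0.08 (SE, 2.01-fold), PSMB10 minus PSMB7 by 0.95 ± 0.07 (1.94-fold) and PSMB8 minus PSMB5 by 0.32 ± 0.02 (1.25-fold), each at exact p = 0.0286.

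PSMB8 itself showed no difference between the compounds that passed the test: 0.00, with a 95% interval of -0.10 to 0.11. Its 3 dimmer probes gave 0.04, -0.09 and -0.22, and the last of them, the dimmest, was called (limma adjusted p = 0.0121). The intervals of the other genes not called here were -0.13 to 0.09 for PSMA2, -0.16 to 0.09 for PSMB4, -0.09 to 0.18 for PSMC4, -0.11 to 0.21 for PSMD9 and -0.09 to 0.16 for PSME2. For PSMB6 the call rests on the processing: its change of -0.15 (-0.29 to -0.01) had a limma adjusted p of 0.0574, but it was -0.27 with median scaling (0.00148), -0.31 with no scaling (0.00109) and -0.16 in the authors' deposited log2 table (0.0314), called lower in each. PSMD6 was at -0.10 (-0.20 to 0.01) and PSMD5 at -0.14 (-0.29 to 0.00). The dim probes of PSMA8 (-0.43 to 0.14) and PSMC6 (-0.44 to 0.19) had the widest intervals. With median scaling PSMD6 was at -0.25, PSMD5 at -0.24 and PSMB4 at -0.18, all called lower.

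Genes that work around the proteasome were followed in 4 lists. The first list holds 13 genes without a PSM symbol whose products bind, assemble or belong to the proteasome. Of these 13, 6 were higher and 5 lower in MC2494 against control, and 4 were higher and 3 lower in EX527 against control. ADRM1 and SEM1 in it are cap subunits outside the cap genes counted above. SEM1 was lower in MC2494 (-0.20 ± 0.06) and higher in EX527 (0.20 ± 0.06) than in control. ADRM1 was lower with each compound, at -0.29 in MC2494 and -0.25 in EX527. Of all genes, 37.3% were higher and 34.8% lower in MC2494 against control, and 25.6% and 30.4% in EX527 against control; the counts of each of the 4 lists stand against these shares. USP14, a deubiquitinase held on the cap, read 10.59, 10.68, 10.61 and 10.65 in MC2494, against 10.06, 9.96, 10.00 and 9.85 in controls, a 1.58-fold rise (0.66 ± 0.06, limma adjusted p = 2.91e-07), and it read 10.37, 10.31, 10.52 and 10.32 in EX527 (0.41 ± 0.06, limma adjusted p = 7.99e-05). ZFAND2A, a stress-induced protein of the cap also known as AIRAP, was 1.53-fold higher in MC2494 (0.62 ± 0.07). UCHL5, the other cap-bound cysteine deubiquitinase, was lower in MC2494 (-0.60 ± 0.05) and higher in EX527 (0.23 ± 0.05) than in control: it read 10.37, 10.37, 10.38 and 10.36 in MC2494, 11.13, 11.20, 11.27 and 11.18 in EX527 and 11.02, 10.97, 10.97 and 10.91 in controls. It was 1.77-fold lower in MC2494 than in EX527 (-0.83 ± 0.05, limma adjusted p = 4.44e-09), and no arrays of any pair of groups overlapped. PITHD1 was 0.41 above EX527 in MC2494, a call lost with no scaling (0.19), and AKIRIN2, which carries proteasomes into the nucleus, fell by 0.28 in EX527 against control.

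The second list holds the NFE2L1 pathway, which covers this transcription factor, its relatives and partners, and the enzymes that release it from the endoplasmic reticulum. In MC2494 against control 5 of 10 were higher and 3 lower, and in EX527 against control 4 were higher and 2 lower; 8 and 6 of 10 called compare with 72.1% and 56% of all genes, near the background. NFE2L1 read 9.23, 9.31, 9.20 and 9.30 in MC2494, 9.33, 9.24, 9.17 and 9.32 in EX527 and 8.96, 9.09, 9.03 and 9.03 in controls. It was higher with each compound, 0.23 ± 0.06 in MC2494 (limma adjusted p = 0.00175) and 0.24 ± 0.06 in EX527 (limma adjusted p = 0.00224). In MC2494 the call was lost with median scaling, at 0.13 (0.0744), and with no scaling, at 0.12 (0.157). Under quantile normalisation the difference between the compounds was -0.01 (95% interval -0.13 to 0.11), not called. NFE2L3, its relative, was 2.03-fold lower in MC2494 (-1.02 ± 0.06) and at -0.08 in EX527, where it was not called. In MC2494 against EX527, NFE2L3 was at -0.94. MAFG, a small partner protein, was 1.63-fold higher in MC2494 than in EX527 (0.70 ± 0.06, and 1.32 on its dimmer probe), and MAFF, another partner, was 1.91-fold lower in MC2494 than in control (-0.93 ± 0.11), though its dimmer probe gave -0.06. NFE2L2, the antioxidant factor NRF2, was 1.68-fold higher in EX527 (0.75 ± 0.07) and SEL1L, of the ubiquitin ligase complex of the endoplasmic reticulum, was at 0.41 ± 0.09 in EX527.

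Among 12 genes of ubiquitin and substrate delivery, 4 were higher and 6 lower in each compound against control, so 10 of 12 were called in each, where 72.1% of all genes were called in MC2494 and 56% in EX527. SQSTM1, the autophagy receptor p62 that also binds ubiquitin chains, was 2-fold higher in MC2494 (1.00 ± 0.11, limma adjusted p = 1.19e-06). BAG6, a chaperone that hands faulty proteins to the proteasome, was 1.98-fold lower in MC2494 (-0.98 ± 0.08) and at -0.08 in EX527, where it was not called. In MC2494 against EX527, SQSTM1 was at 0.53 and BAG6 at -0.90, with the other BAG6 probe at -0.33. In EX527 the ubiquitin-activating enzyme UBA6 was 1.9-fold higher (0.93 ± 0.08), and UFD1, a cofactor of the unfoldase VCP, was 1.49-fold lower (-0.58 ± 0.06).

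In the list of the interferon-gamma axis and peptide loading, 6 of 11 genes were higher and 2 lower in MC2494 against control, and 3 were higher and 3 lower in EX527 against control. The 8 and 6 of 11 called lie near the 72.1% and 56% of all genes. IRF1, the transcription factor that drives PSMB9 and TAP1 on interferon-gamma, read 9.32, 9.48, 9.29 and 9.18 in MC2494, 8.57, 8.45, 8.49 and 8.44 in EX527 and 8.72, 8.85, 8.68 and 8.53 in controls. It was 1.54-fold higher in MC2494 than in control (0.62 ± 0.08, limma adjusted p = 4.52e-06) and 1.78-fold higher than in EX527 (0.83 ± 0.08, limma adjusted p = 4.08e-07), and it was lower in EX527 than in control (-0.21 ± 0.08, limma adjusted p = 0.034), a call that was lost with median scaling (-0.19) and without control array 1, 2 or 3 or EX527 array 2, 3 or 4 (range -0.26 to -0.15). HLA-F, a class I molecule, was 1.59-fold higher in MC2494 (0.67 ± 0.07). TAP2, a subunit of the peptide transporter, was 1.64-fold lower in MC2494 (-0.72 ± 0.09), while TAP1, the other subunit, was at 0.12 and not called. In MC2494 against EX527, TAP2 was at -0.78. In EX527, ERAP1, which trims peptides, was at 0.32 ± 0.12, with its other probe at 0.51. The ERAP1 call was lost without control array 1, 3 or 4, EX527 array 2 or 3 or MC2494 array 2 or 3 (range 0.20 to 0.40). CIITA, the class II regulator, was at -0.29 ± 0.09 in EX527, on a probe detected on 1 EX527 array and 3 control arrays. Such a probe passes the detection filter more through control arrays, where it is high, than through EX527 arrays, so the filter favours a fall. CIITA is among the genes of this list counted as lower with each compound.

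**Figure D5:**
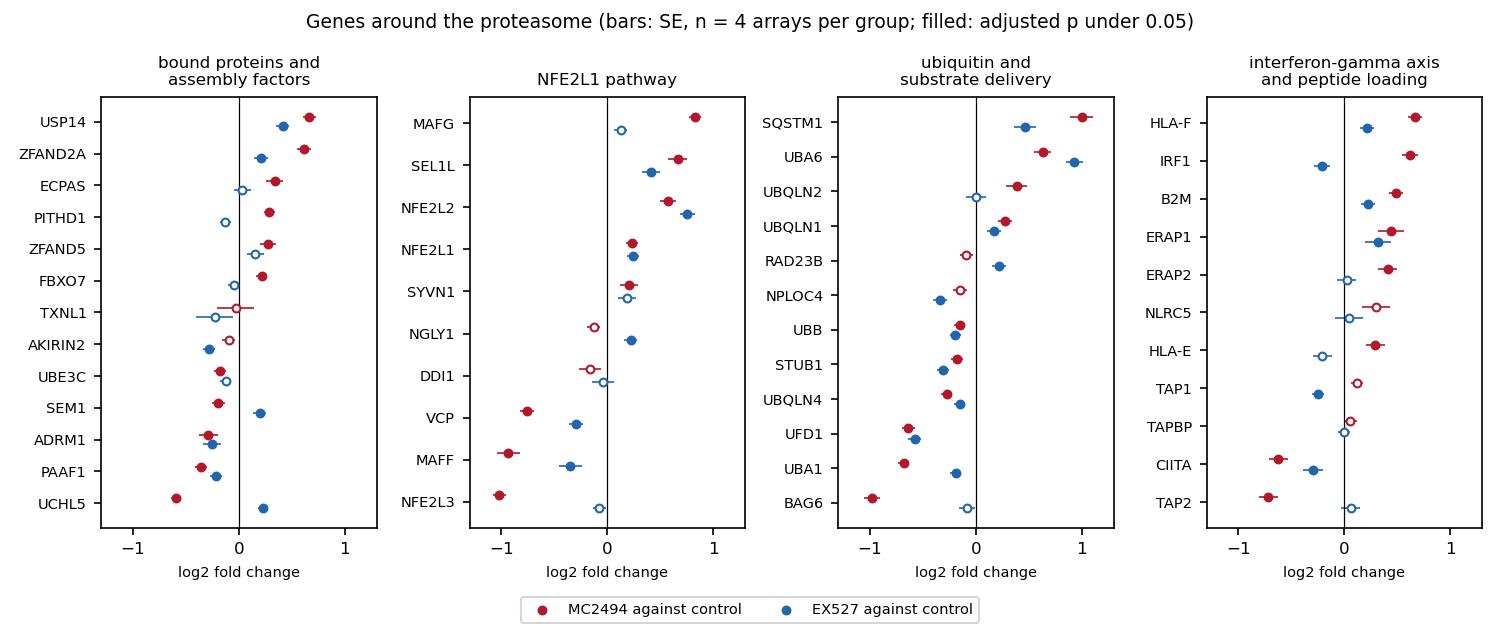
Log2 fold change against control of genes that work around the proteasome, in 4 lists, after MC2494 (red) or EX527 (blue); bars are the standard error with 4 arrays per group, and filled points passed the adjusted p threshold of 0.05. SQSTM1 is highest in MC2494 at 1.00 and NFE2L3 lowest at -1.02, and UCHL5 lies on opposite sides of 0 with the 2 compounds.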

How the data were processed

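RNA of U937 cells, 3000 ng per sample, was labelled with biotin and hybridised to Illumina bead arrays, per the labels' protocols. The deposited signal table holds linear, unscaled bead intensity, as its values show, with a detection p-value for each, per the file headers. In a second table the authors deposited log2 values whose columns share 1 distribution, as after quantile normalisation; the submitters' processing notes name limma, and the background correction is not given in the sources used here.

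Intensities were processed in R 4.3.3 by the neqc function of limma 3.58.1 (offset 16), and 13174 probes with a detection p under 0.05 on at least 4 of 12 arrays were kept. Each gene was represented by its brightest kept probe. Group means of all 12 arrays were fitted with lmFit and eBayes, with Benjamini-Hochberg adjustment over the kept probes and a threshold of 0.05; fold changes are group mean differences on the log2 scale, and n is the number of arrays, which limits the precision. Fitting and calling were tested on simulated data. Groups came from the treatment label. The replicate numbers did not pair the arrays: of 12 same-numbered pairs across groups, the correlation of deviations from the group means ran from -0.04 to 0.18 and was over 0.1 in 4. No 2 arrays held identical signals.

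The members, the lists of surrounding genes, the tests and the alternatives were chosen with earlier results of these data known. Genes are given in full by rule: per comparison the 6 largest rises and 6 largest falls among called members with groups that do not overlap, PSMB5 to PSMB10, the most changed member of each class with at least 2 called members, the 2 most changed called genes of each surrounding list, and NFE2L1 and IRF1. A further probe of a gene so named is given where it disagrees in sign or by over 0.5. PSMD4, PSMD14, PSMC6, PSMA4, PSMD10's dimmer probes and both genes outside the complex were described after their values were seen. Gene names are those of the platform annotation, and promoter windows were matched by symbol to RefSeq on GRCh38.p14. Alternatives changed the background correction, the offset, the scaling, the detection filter, the probe, the samples and features fitted, the variance model and the threshold, added the replicate number as a block, used the authors' deposited log2 table and left out each array in turn.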

Additional observations from a re-analysis of the deposited data

Results flagged for a closer look

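In 6 of the 129 groups of 4 arrays examined, 1 array stood apart from the other 3 by more than Dixon's 95% critical value; chance flags about 1 group in 20, which is close to this number. In MC2494, PSMD4 was 12.38 on array 2, against 12.09 on the next array, and PSME1 was 12.40 on array 3, against 12.25 on the next. In EX527, PSMB3 was 13.36 on array 3, against 13.44 on the next, and PSMC3 was 12.08 on array 2, against 11.96 on the next. In control, PSMB2 was 12.74 on array 1, against 12.99 on the next, and PSME3IP1 was 8.22 on array 3, against 8.26 on the next. The call of PSMB2 in MC2494 against control remained in all 12 fits that each left out 1 array, with changes from -0.75 to -0.66. PSMC3 also kept its call there, from -1.01 to -0.93, but its flagged array belongs to EX527 and does not enter that difference. Other calls did change without the flagged array. In EX527 against control, PSMB2 became called lower without control array 1, and PSMC3 without EX527 array 2. PSMD4 in MC2494 against control became called lower without MC2494 array 2. The PSME1 call in MC2494 against EX527 was lost without MC2494 array 3.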

How the results depend on the processing

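The scaling between arrays changed several results. With median scaling, or with no scaling, 3 of the 41 genes were higher in MC2494 against control under either setting, 1 was higher with EX527 than in controls and 3 were higher with MC2494 than with EX527. With median scaling the core medians were -0.57 (MC2494 against control), -0.31 (EX527 against control) and -0.43 (MC2494 against EX527), the cap medians -0.63, -0.30 and -0.43, and the immunoproteasome median 0.49 in MC2494 against EX527. With no scaling the core medians were -0.57, -0.27 and -0.47, the cap medians -0.63, -0.26 and -0.47, and the immunoproteasome median 0.44. PSME1 was then at -0.10 against control under either setting and at -0.0397 with median scaling and -0.0833 with no scaling against EX527, and with no scaling PSMD4 was at -0.0411 and PSMB8 at -0.20 in MC2494 against EX527. In EX527 against control, PSMB9 minus PSMB6 was -0.12 (adjusted exact permutation p = 0.257) and PSMB10 minus PSMB7 was 0.24 (0.0321) under both.

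With the dimmest probe of each gene, PSMB8 minus PSMB5 was -0.0243 in MC2494 against control, -0.13 with EX527 against control and 0.105 between the compounds, none of them called. PSMB6, PSMB7, PSMB9 and PSMB10 have 1 kept probe each, so this setting cannot change the other pairs (0.65, 1.15, -0.36, 1.01 and 0.95), whose adjusted exact permutation p of 0.0514 moved only through the adjustment over the 9 tests. In MC2494 against EX527 that probe choice gave -0.0399 for PSME1 and -0.22 for PSMB8, and core medians of -0.36 in MC2494 against control and -0.28 in MC2494 against EX527. The cap median was then -0.53 in MC2494 against control and -0.18 in EX527 against control. The cap median of MC2494 against control was -0.37 with no background correction, -0.41 with an offset of 50, -0.39 in the authors' deposited log2 table and -0.64 over the 13 cap genes detected on all 12 arrays, which gave -0.25 in EX527 against control.

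The count of genes higher in EX527 against control was 4 with no background correction and with a trended robust variance, and 1 with no detection filter, with detection on all arrays, with only the groups compared in the fit and at an adjusted p under 0.01. The last 2 settings gave 3 genes higher in MC2494 against EX527. The cause of these moves was not tested.

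Leaving out 1 array at a time gave 1 to 4 genes higher in EX527 against control (4 without control array 1; 1 without control array 3 or 4 or EX527 array 2 or 3) and 3 to 5 higher in MC2494 against EX527 (3 without EX527 array 2 or 3). The immunoproteasome median of MC2494 against EX527 ran from 0.61 to 0.68. PSMB8 minus PSMB5 ran from 0.17 to 0.22 in MC2494 against control and lost its call without MC2494 array 3 or 4. In EX527 against control it ran from -0.15 to -0.10 and lost its call without any single EX527 array (adjusted exact permutation p = 0.0643). In both comparisons no arrays of the 2 groups overlapped, so those left in each fit did not overlap either. With 1 array fewer the permutation p moves in coarser steps, so these lost calls do not show a weaker separation.

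With the replicate number as a block, 36 of 41 genes were called in MC2494 against control, 22 with EX527 against control and 29 between the compounds; the numbers did not pair the arrays, and 2 of 12 arrays correlated best with their own number. Over 77 gene results and 1922 alternatives, 1858 kept their side of the threshold, some of them with a change of sign between uncalled values. With the direction kept, 44 lost the call and 12 gained it. The other 8 changed sign with a call in the main or the alternative fit. A slide block was not run, since the headers give no slide.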
